A study of Mus musculus with 6 samples.

Results

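The 7 genes of the constitutive beta ring of the 20S proteasome, Psmb1 to Psmb7, had higher mean mRNA signals in satellite cells of Rpt3 knockout mice than in those of control mice. They were chosen by gene name among the non-control probes of the array, which gave 8 probes for the 7 genes out of 55681 probes. All 7 genes were well above background on all 6 arrays and were tested among 19298 gene features. The mean differences ran from 1.67-fold for Psmb6 to 3.12-fold for Psmb3. In each of the 7 genes every knockout array lay above every control array, beside 4.97% of all features. None of the 7 passed the threshold after adjustment over all features. The 3 genes of the catalytic subunits differed by less on average than the 4 genes of the non-catalytic subunits.

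Satellite cells, from which muscle regenerates, were sorted from mice of the C57BL6 strain. In 3 of the mice Rpt3 had been knocked out in these cells, 3 others were controls, and each mouse gave 1 Cy3 array after 5 ng of RNA had been amplified. Rpt3 is the product of Psmc4, an ATPase of the 19S regulatory particle. The labels give neither the age of the mice, the driver of the deletion, nor the genotype of the controls beyond the word control. In bulk RNA of a sorted population, fewer cells of a type and less RNA per cell cannot be told apart.

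The 20S core is a barrel of stacked rings in which alpha rings form the gates and beta rings enclose the proteolytic chamber. The 19S particle binds ubiquitin-tagged proteins, unfolds them and feeds them into this chamber. Each beta ring holds a caspase-like, a trypsin-like and a chymotrypsin-like site, whose active residue is an N-terminal threonine that is freed when a propeptide is cut off during assembly. In mammalian cells whose proteasomes fail, the transcription factor NRF1, the product of Nfe2l1, is known to raise the genes of most proteasome subunits together, a response called bounce-back.

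The probes on which the results rest lay at different parts of the transcripts, and 4 of the 8 sequences are shown because they tell which mRNA was read. These have at least 1 forward frame without a stop codon over their 60 bases and no polyadenylation signal. Positions are those of the array annotation on mouse build mm9. The sequences of the brighter Psmb5 probe and of the probes of Psmb7, Psmb1 and Psmb2 were as follows, 5′ to 3′ in the sense of the mRNA.
Psmb5 (chr14:55233161-55233220, minus strand): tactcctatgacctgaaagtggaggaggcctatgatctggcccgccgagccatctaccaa
Psmb7 (chr2:38468966-38489385, minus strand): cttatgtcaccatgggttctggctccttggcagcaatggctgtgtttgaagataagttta
Psmb1 (chr17:15630098-15631393, minus strand): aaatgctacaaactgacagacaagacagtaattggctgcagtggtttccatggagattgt
Psmb2 (chr4:126361456-126364299, plus strand): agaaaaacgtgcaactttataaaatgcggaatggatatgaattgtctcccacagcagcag
The 60 bases of the Psmb7, Psmb1 and Psmb2 probes span 20420, 1296 and 2844 bp of the genome, so each crosses a splice junction, while the Psmb5 probe lies within 1 exon. The Psmb4 probe (chromosome 3, 94688326 to 94688615, minus strand) spans 290 bp and has a stop codon in each of its 3 forward frames. The probes of Psmb3 (chromosome 11, 97574748 to 97574807, plus strand) and Psmb6 (chromosome 11, 70341093 to 70341152, plus strand) hold the polyadenylation signal AATAAA from base 48 and base 42. The dimmer Psmb5 probe (chromosome 14, 55232957 to 55233016, minus strand) holds it from base 39. These 3 probes also have 1 forward frame without a stop codon, but carry a signal that marks the 3′ end of an mRNA.

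Signals are given as log2 of the scanner's processed signal minus the 75th percentile of it on the same array, so that 0 stands for that percentile, and differences are knockout minus control on this log2 scale. Values of single arrays follow the order of the sample numbers, 1 to 3 in each group. Because probes bind with different strength, the levels of different genes are not comparable. Differences were tested with limma over all 19298 features, and p-values were adjusted by Benjamini-Hochberg. The targeted gene, Psmc4, had signals of 2.003, 2.02 and 1.52 on the knockout arrays, against 2.89, 2.58 and 2.83 on the control arrays, a difference of -0.92 (SE 0.23, adjusted p = 0.408). It thus lay lower in all knockout samples, opposite to the beta genes. Since the deleted stretch of Psmc4 is not named in the labels, whether the probe lies within it is unknown here.

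Among the catalytic subunits, Psmb7 encodes the trypsin-like subunit at the beta 2 position. Its signal was 6.23, 6.07 and 5.38 on the knockout arrays, against 4.94, 4.68 and 4.94 on the control arrays. Every knockout array lay above every control array, by at least 0.43. The knockout mean of 5.89 ± 0.45 (SD, n = 3) and the control mean of 4.85 ± 0.15 (SD, n = 3) differed by 1.04 (SE 0.27) or 2.05-fold, with a 95% interval from 1.32 to 3.18-fold (limma, adjusted p = 0.432).

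Psmb5 encodes the chymotrypsin-like subunit at the beta 5 position, the main target of the drug bortezomib. The brighter of its 2 probes gave 4.93, 4.78 and 3.98 on the knockout arrays, against 3.87, 3.44 and 3.96 on the control arrays. Knockout 3 lay only 0.02 above control 3, so the groups were barely apart. The difference was 0.80 (SE 0.31) or 1.75-fold, with a 95% interval from 1.07 to 2.86-fold (limma, adjusted p = 0.631). The dimmer probe, which holds the polyadenylation signal, gave 2.57, 2.36 and 1.60 on the knockout arrays, against 1.86, 1.29 and 1.53 on the control arrays. On it the groups overlapped, because knockout 3 lay below control 1. Fitted among 26108 probes, its difference was 0.62 with a 95% interval from -0.11 to 1.34 (limma, adjusted p = 0.775).

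Psmb6 encodes the caspase-like subunit at the beta 1 position and had the smallest difference of the 7. Its signal was 4.14, 3.94 and 3.62 on the knockout arrays, against 3.21, 3.28 and 3.01 on the control arrays. The groups did not overlap, with a gap of 0.34. The difference was 0.74 (SE 0.23) or 1.67-fold, with a 95% interval from 1.16 to 2.40-fold (limma, adjusted p = 0.501).

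Among the non-catalytic subunits, Psmb3, at the beta 3 position, had the largest difference. Its signal was 5.51, 5.39 and 4.79 on the knockout arrays, against 3.79, 3.25 and 3.72 on the control arrays. Its lowest knockout array lay 0.998 above its highest control array, the widest gap of the 7 genes. The difference was 1.64 (SE 0.28), with a 95% interval from 2.002 to 4.86-fold (limma, adjusted p = 0.218).

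Psmb2, at the beta 4 position, gave 3.83, 3.68 and 3.01 on the knockout arrays, against 2.33, 1.64 and 2.06 on the control arrays. All knockout arrays were higher, by at least 0.68. The difference was 1.49 (SE 0.30) or 2.81-fold, with a 95% interval from 1.74 to 4.54-fold (limma, adjusted p = 0.313).

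Psmb4, at the beta 7 position, encodes the subunit known to join last before half-proteasomes pair. It gave 5.12, 4.82 and 4.25 on the knockout arrays, against 3.85, 3.42 and 3.28 on the control arrays. The gap between the groups was 0.40, set by knockout 3 and control 1. The difference was 1.21 (SE 0.29) or 2.32-fold (limma, adjusted p = 0.368).

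Psmb1, at the beta 6 position, gave 3.27, 3.01 and 2.79 on the knockout arrays, against 1.97, 1.81 and 2.08 on the control arrays. Its knockout arrays lay closest together of the 7 genes, with an SD of 0.24, and all lay above the controls by at least 0.71. The difference was 1.07 (SE 0.22) or 2.11-fold (limma, adjusted p = 0.328).

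**Figure D1:**
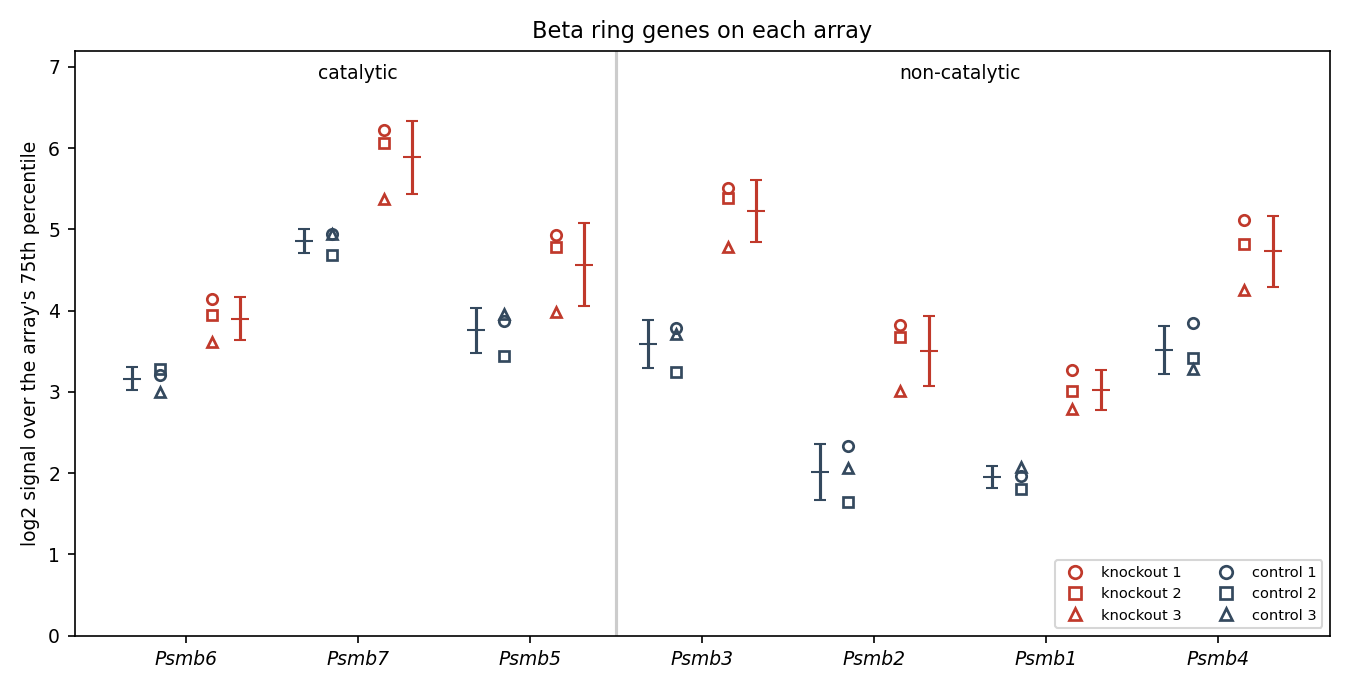
Log2 signal over the array's 75th percentile (vertical axis) of the 7 beta ring genes on each of the 6 arrays. Open symbols are single arrays and bars are the group mean ± SD (n = 3). Every red symbol (knockout) lies above every blue one (control) of the same gene, with the narrowest gap in Psmb5 (0.02) and the widest in Psmb3 (0.998).

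Read against all features, the 7 genes lay near the upper end of the differences. Their median difference was 1.07, beside 0.04 over all 19298 features, of which the middle 90% lay between -0.72 and 0.62. The groups did not overlap in 7 of 7 beta genes with knockout above control, beside 4.97% of all features, and with knockout below in 0 of 7, beside 5.68%. Means at least 1.5-fold higher were found in 7 of 7, beside 5.6%, and a higher mean of any size in 7 of 7, beside 56%. At least 2-fold higher means were found in 5 of 7, beside 1.44% of all features. An unadjusted limma p under 0.05 with a higher knockout mean was reached by 7 of 7, beside 2.83% of all features, and with a lower mean by 0 of 7, beside 4.28%. At an adjusted p under 0.05, 0 of 7 were called, as were 0% of all features in either direction, and the smallest adjusted p of any feature was 0.068. Each gene had a 2-sided exact permutation p of 0.1, and groups of this size can give none smaller. With arrays weighted by their estimated quality, Psmb1, Psmb2, Psmb3, Psmb4 and Psmb7 passed (adjusted p from 0.0209 to 0.0381), beside 0.394% of all features called higher. Psmb5 (adjusted p = 0.0641) and Psmb6 (0.0605) did not. That fit gave knockout 2 a weight of 5.97 and knockout 3 a weight of 0.238.

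**Figure D2:**
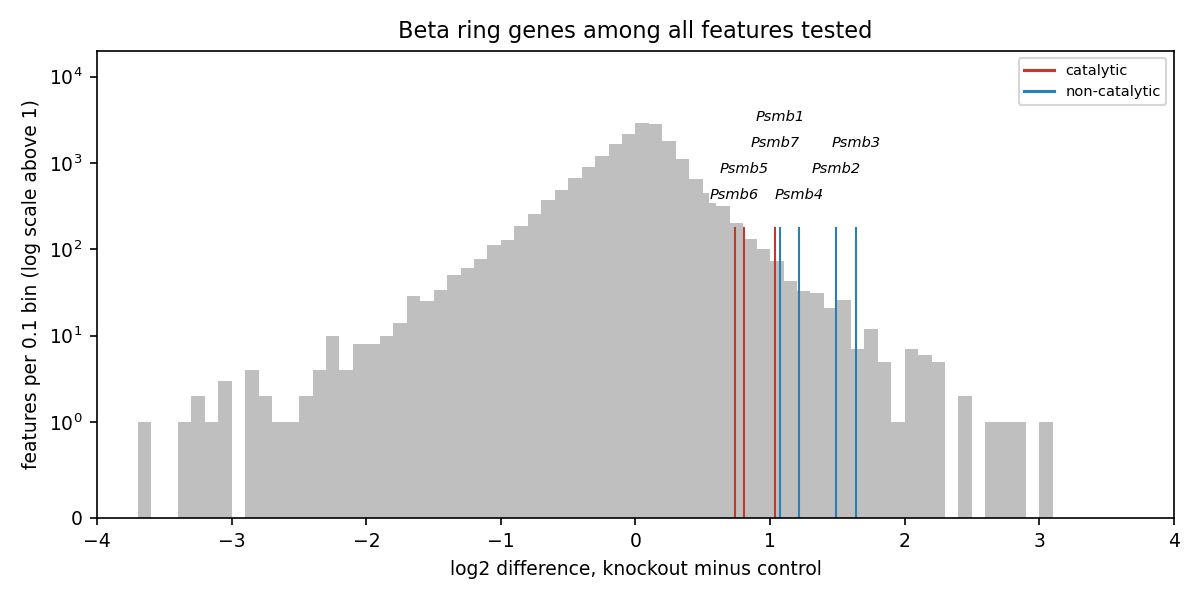
Number of features (vertical axis, log scale above 1) per 0.1 of log2 difference (horizontal axis) over all 19298 features tested, with the 7 beta ring genes as vertical lines. The catalytic genes Psmb6, Psmb5 and Psmb7 and the non-catalytic genes Psmb1, Psmb4, Psmb2 and Psmb3 all lie to the right of most features, from 0.74 to 1.64.

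The 3 knockout samples did not carry the difference equally, and knockout 3 was the lowest knockout array in 7 of 7 genes. No share of all features is given beside this count, so it cannot be read as particular to the beta genes. Relative to each gene's mean over all arrays, the 7 genes stood on average at 0.88, 0.69 and 0.14 on the knockout arrays, against -0.41, -0.76 and -0.54 on the control arrays. The difference of these means was 1.14, or 2.21-fold. The labels give no slide row, so it was read from the array position in the scanner's own array names. By this reading, the arrays of knockout 1 and 2 were in slide row 1, whereas those of the 3 controls and of knockout 3 were in slide row 2. Thus only knockout 3 can be compared with the controls within a row. Against the control mean, knockout 3 differed by 1.20 in Psmb3, 0.995 in Psmb2, 0.84 in Psmb1, 0.74 in Psmb4, 0.52 in Psmb7, 0.45 in Psmb6 and 0.22 in Psmb5. The fit with slide row as a block gives these same values (limma, adjusted p from 0.262 to 0.698). So does the fit on slide row 2 alone (limma, adjusted p from 0.338 to 0.729). Their mean, 0.71, was smaller than the 1.14 over all arrays but in the same direction. Without knockout 3 the mean was 1.36, and 7 of 7 genes again did not overlap, beside 15.5% of all features in that smaller comparison. Without knockout 1 and 2, 7 of 7 lay above the controls, beside 36.5% of all features, and 3 of 7 had an unadjusted limma p under 0.05, beside 8.41%. The order of the knockout arrays in the ring was also that of the share of probes well above background, 57.9%, 51.7% and 44.2%, while the controls lay between 53.03% and 53.6%. The part of that share in the result was not tested.

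**Figure D3:**
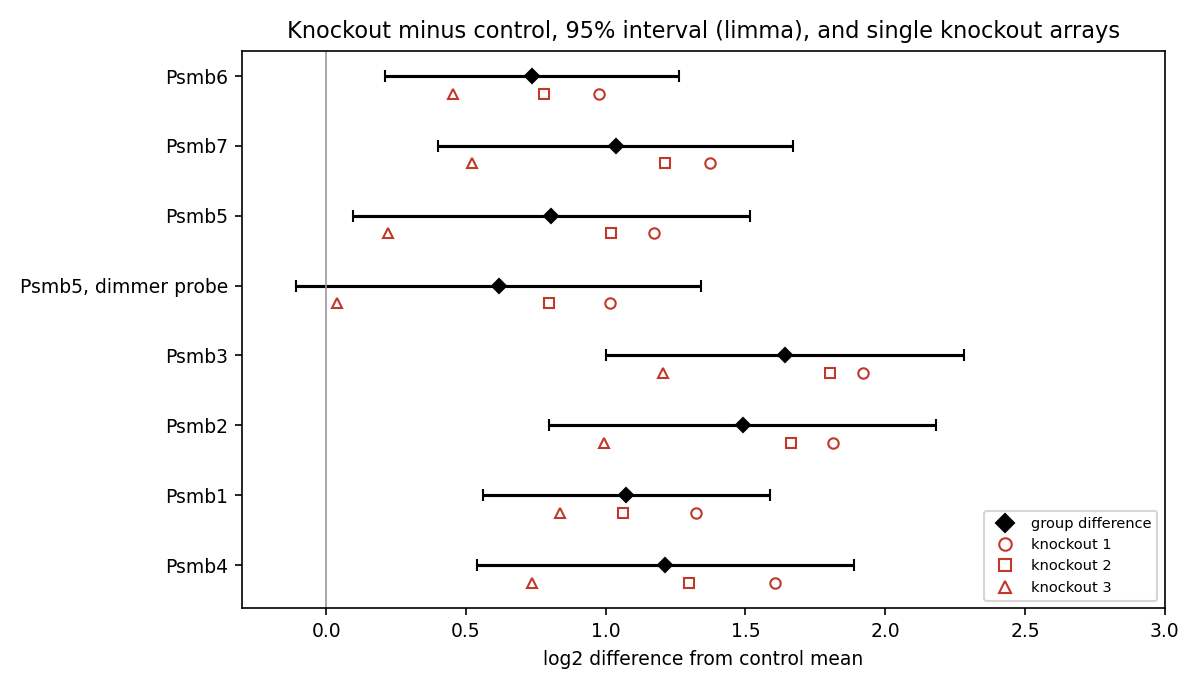
Log2 difference from the control mean (horizontal axis) for the 7 genes and for the dimmer Psmb5 probe, with black diamonds for knockout minus control, bars for the 95% interval of limma, and red symbols for single knockout arrays. Only the interval of the dimmer Psmb5 probe, from -0.11 to 1.34, includes 0, and knockout 3 (triangles) is the lowest knockout array in every gene.

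On average the catalytic genes differed by less than the non-catalytic ones. The 3 catalytic genes had a mean difference of 0.86, or 1.81-fold, and the 4 non-catalytic genes one of 1.35, or 2.56-fold. Each gene was centred on its mean over the 6 arrays before the classes were set against each other. Catalytic minus non-catalytic then stood at -0.24, -0.20 and -0.30 on the knockout arrays, against 0.11, 0.36 and 0.28 on the control arrays. The groups did not overlap, and the knockout arrays lay close together. The knockout mean was -0.25 ± 0.05 (SD, n = 3), the control mean was 0.25 ± 0.13 (SD, n = 3), and their difference was -0.496. No p is given, since the 7 genes were chosen with earlier results known. Within slide row 2 it was -0.54. The highest catalytic gene, Psmb7 (1.04, SE 0.27), lay just below the lowest non-catalytic gene, Psmb1 (1.07, SE 0.22), which is closer than either standard error.

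Among themselves the 7 genes followed their common mean with different closeness. The root mean square distance of a gene's centred signals from the ring's mean over the 6 arrays was smallest for Psmb7, at 0.079, and largest for Psmb6, at 0.265, and Psmb3, at 0.262. Psmb6 lay 0.28 below the ring's mean in knockout 1, 0.28 below it in knockout 2 and 0.504 above it in control 2. Psmb3 went the other way, above the ring's mean by 0.22, 0.29 and 0.24 in knockout 1, 2 and 3. So did Psmb2, by 0.19, 0.23 and 0.11. Psmb5 departed most in knockout 3, at -0.32, and control 3, at 0.35.

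**Figure D4:**
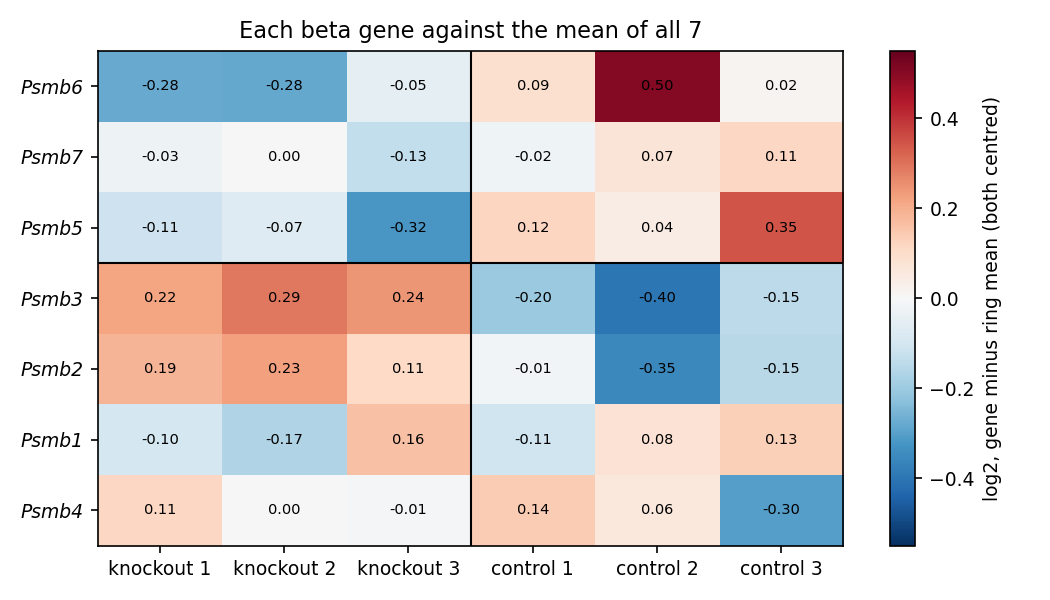
Log2 signal of each beta ring gene minus the mean of all 7, both centred over the 6 arrays, with genes in rows (catalytic above the line) and arrays in columns. Psmb3 and Psmb2 are positive in all knockout arrays and negative in all controls, and Psmb6 and Psmb5 are negative in all knockout arrays and positive in all controls.

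In cells exposed to interferon, each catalytic subunit can be replaced by an inducible counterpart, Psmb9 for Psmb6, Psmb10 for Psmb7 and Psmb8 for Psmb5, which turns the particle into the immunoproteasome. The 3 inducible genes had smaller mean differences than the subunits they replace. By limma, 0 of 3 reached even an unadjusted p under 0.05, beside 2.83% of all features with such a p and a higher mean. Psmb8 differed by 0.63 (SE 0.46) beside 0.80 for Psmb5, Psmb9 by 0.24 (SE 0.34) beside 0.74 for Psmb6, and Psmb10 by 0.14 (SE 0.38) beside 1.04 for Psmb7. The differences within these pairs were not tested. Control 1 was high in all 3, with signals of 1.37 for Psmb8, 0.44 for Psmb9 and 1.73 for Psmb10, each above at least 1 knockout array. The thymic counterpart of Psmb5, Psmb11, was not well above background on any array.

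The beta ring is built on a finished alpha ring with the help of chaperones. The genes of these chaperones had small or negative differences, and 0 of 4 tested passed over all features. Pomp, whose product guides beta subunits into the half-proteasome, differed by 0.40 (SE 0.27, adjusted p = 0.919), and knockout 3, at 1.78, lay among the controls, at 2.02, 1.895 and 1.73. The alpha ring chaperone gene Psmg1 was lower in every knockout sample, with 1.23, 1.70 and 1.58 on the knockout arrays, against 1.84, 2.504 and 2.22 on the control arrays. Its difference of -0.69 (SE 0.26) did not pass (limma, adjusted p = 0.617). Psmg2 differed by -0.61 (SE 0.39) and Psmg4 by 0.31 (SE 0.299), and neither passed. Psmg2 was well above background on only 1 of 3 knockout arrays and entered through the control arrays alone. Psmg3 was well above background on 1 array of each group and was not tested. The 4 tested genes, Psmg2 included, had a median difference of -0.15.

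Median differences in the lists of alpha ring and 19S genes, without Psmc4, ran from 0.75 to 1.03, beside 1.07 for the beta ring. By limma, 0 of the 7 alpha ring genes passed over all features, and 6 of 7 had an unadjusted p under 0.05, all with higher knockout means. Beside this count and those of the lists that follow stands the share of all features with such a p and a higher mean, 2.83%. Their median difference was 1.03. The 2 of largest difference were Psma1 (1.57, SE 0.28) and Psma5 (1.40, SE 0.26), and the smallest was Psma3 (0.42, SE 0.25). Of the 5 ATPase genes beside Psmc4, 5 had an unadjusted p under 0.05 and 0 passed, with a median of 0.997. Psmc6 (1.33, SE 0.21) and Psmc2 (1.09, SE 0.35) had the largest differences and Psmc1 (0.66, SE 0.26) the smallest. Of 13 other 19S genes, 11 had an unadjusted p under 0.05 with higher means and 0 passed, with a median of 0.75. Psmd3 (1.56, SE 0.29) and Psmd1 (1.496, SE 0.296) had the largest differences and Sem1 (0.19, SE 0.23) the smallest. The 4 tested genes of proteasome activators had a median of 0.18, and 0 of 4 had an unadjusted p under 0.05. Among them, Psme4 differed by 0.56 (SE 0.43), Psme2 by 0.203 (SE 0.28) and Psme3 by 0.14 (SE 0.22).

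The features whose pattern over the 6 arrays lay nearest to the mean of the 7 beta genes were found by the root mean square distance of centred log2 signals among 19291 other features. The nearest was Nploc4, which encodes a cofactor of the segregase p97, at a distance of 0.052 and with a difference of 1.24. It was followed by a transcript that the array names only NAP058670-1 (0.060), by the glutathione transferase gene Gstp2 (0.071), by NAP097170-001 (0.108) and by Sod1, the gene of cytosolic superoxide dismutase (0.109). The nearest 50 features held 10 of the 25 tested genes of the alpha ring, the other ATPases and the other 19S subunits, a count made after their values were seen.

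Factors known to act on proteasome subunit genes were given beside the ring. Of 9 tested, 0 passed over all features. Vcp, the gene of p97, which frees NRF1 from the endoplasmic reticulum, had 3.72, 3.55 and 3.15 on the knockout arrays, against 2.60, 2.51 and 2.21 on the control arrays. Its groups did not overlap, and the difference was 1.03 (SE 0.24, adjusted p = 0.356). Zfp143 differed by -0.77 (SE 0.27, adjusted p = 0.605) and was well above background on 1 of 3 knockout arrays. Ddi2, the protease gene that activates NRF1, differed by -0.09 (SE 0.23). The NRF1 gene Nfe2l1 (-0.58, SE 0.31) and its relative Nfe2l2 (0.57, SE 0.31), picked once their values were known, also had adjusted p-values above the threshold (limma, 0.830 and 0.834). Signals of mRNA do not show how much active factor was present.

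Since NRF1 and NRF2 are known to bind antioxidant response elements, the 250 bases before the start of the beta genes were searched for the letters TGACNNNGC and TGAGNNNGC on both strands, and for the CCAAT box that NF-Y is known to bind. RefSeq promoters of build GRCm38.p6 matched 4 of the 7 genes, Psmb3, Psmb4, Psmb5 and Psmb6. TGACNNNGC stood in 2 of the 4, beside 10.2% of 32544 promoters of the same length, TGAGNNNGC in 1 of the 4, beside 14.5%, and CCAAT in 1 of the 4, beside 33.8%. The 3 promoters that hold a match are shown 5′ to 3′ in the sense of the gene, with the matches in capitals.
Psmb5 (chr14:54617996-54618245, minus strand): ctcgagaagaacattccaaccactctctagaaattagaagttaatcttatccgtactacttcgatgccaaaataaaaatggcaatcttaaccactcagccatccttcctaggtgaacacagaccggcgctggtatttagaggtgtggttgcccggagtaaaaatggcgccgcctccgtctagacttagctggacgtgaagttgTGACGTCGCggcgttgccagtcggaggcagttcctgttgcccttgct
Psmb6 (chr11:70525107-70525356, plus strand): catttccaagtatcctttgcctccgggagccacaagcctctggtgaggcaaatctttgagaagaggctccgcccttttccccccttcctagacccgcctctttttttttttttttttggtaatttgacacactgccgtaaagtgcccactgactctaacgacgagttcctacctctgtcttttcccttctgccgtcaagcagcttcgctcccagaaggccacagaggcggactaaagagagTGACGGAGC
Psmb3 (chr11:97703184-97703433, plus strand): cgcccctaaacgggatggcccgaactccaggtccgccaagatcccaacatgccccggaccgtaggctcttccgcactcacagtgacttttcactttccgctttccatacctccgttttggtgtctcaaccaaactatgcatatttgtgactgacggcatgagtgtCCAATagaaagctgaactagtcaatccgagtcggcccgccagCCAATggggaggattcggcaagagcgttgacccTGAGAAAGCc
In Psmb5 the match TGACGTCGC begins 47 bases before the RefSeq start of the gene, and in Psmb6 the match TGACGGAGC begins 9 bases before it. In Psmb3 the CCAAT letters begin 85 and 43 bases before the start and TGAGAAAGC 10 bases before it. The Psmb4 window holds none of these letters. Of the 4 genes searched, Psmb5 and Psmb6, which hold TGACNNNGC, differed by 0.80 and 0.74, Psmb3 by 1.64 and Psmb4 by 1.21. Psmb1, Psmb2 and Psmb7 had no matched promoter, and a link between letters and differences was not tested. A match of letters is a description and shows no binding.

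Markers of the sorted cells and of other cells were read on the same arrays. All 10 markers of satellite cells were on the array. Of them, 9, 9 and 7 were well above background on the knockout arrays, and 10, 10 and 10 on the control arrays. Myf5 was not well above background on any knockout array and was at least 2.23-fold lower there (limma, adjusted p = 0.185). Calcr, the calcitonin receptor gene of quiescent satellite cells, had -0.38, 0.25 and 0.05 on the knockout arrays, against 0.64, 1.38 and 1.02 on the control arrays. Its groups did not overlap, and the difference was -1.04 (SE 0.28, adjusted p = 0.432). Of the 10 markers, 5 had higher and 5 lower knockout means, beside 56% of all features with a higher mean. In 2 of them, Myf5 and Calcr, every knockout array lay below the controls, beside 5.68% of all features. Myf5 entered through the control arrays alone. The median difference of the 10 was -0.11. Myod1 differed by 0.01 and Pax7 by 0.17. Of 11 neutrophil markers, 10, 9 and 3 were well above background on the knockout arrays and 9, 6 and 7 on the control arrays, and their summed linear signal, in units of the array's 75th percentile, ran from 2.06 to 17.5 in knockout and from 2.09 to 4.53 in control cells. The 5 tested ones stood on average at 1.23, 1.097 and -0.75 in knockout 1, 2 and 3 and between -0.79 and -0.31 in the controls. This mean includes Elane and Mmp8, which entered through the knockout arrays alone, and S100a8 and Camp, which entered through the control arrays alone. The part of the neutrophil markers in the difference of the beta ring was not tested. Of 12 red blood cell markers, 11 were on the array, and among these Epb42 and Rhd were not well above background on any array. The summed signal of the 11 markers ran from 206 to 319 in knockout and from 190.4 to 226 in control cells. Most of this sum on every array came from the Ermap probe, which differed by 0.15 (SE 0.26), so it hardly shows the globin genes. Hba-a1, an alpha globin gene, had 3.05, 2.69 and 2.05 on the knockout arrays, against 1.60, 0.57 and -0.01 on the control arrays. Its groups did not overlap, with a difference of 1.88 (SE 0.44, adjusted p = 0.356). The beta globin genes Hbb-bs (1.77, SE 0.72) and Hbb-bt (2.73, SE 0.88), near-identical copies, were also higher on average, and Hbb-bt was well above background on 1 of 3 control arrays. On average, the 5 tested genes of this list were at 0.89, 0.67 and 0.39 on the knockout arrays, against 0.09, -0.75 and -1.29 on the control arrays. This mean includes Hbb-bt, which entered through the knockout arrays alone, and Slc4a1, which differed by -0.01 (SE 0.63). The part of the 5 genes in the result was not tested. The summed signals of macrophage markers (700 to 1229 in knockout, 814 to 821 in control) and endothelial markers (27.7 to 71.2 and 27.2 to 93.4) overlapped between the groups. Those of fibro-adipogenic progenitors were lower in knockout (388 to 442) than in control cells (482 to 815), but such sums rest mostly on the brightest genes. Of these 7 markers, 3 had higher and 4 lower knockout means, with a median difference of -0.02. Their mean centred signals overlapped, at 0.18, 0.17 and -0.45 on the knockout arrays, against 0.25, -0.18 and 0.04 on the control arrays.

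**Figure D5:**
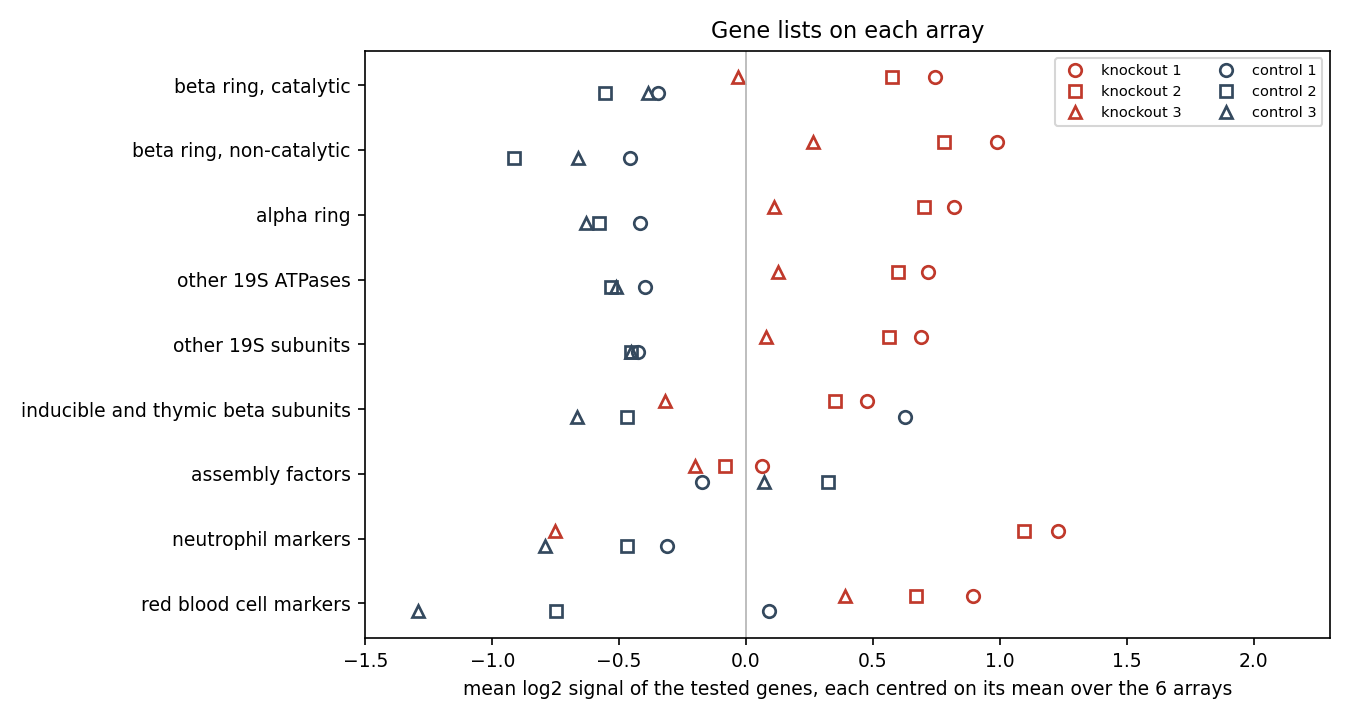
Mean log2 signal of the tested genes of each list, each gene centred over the 6 arrays (horizontal axis), for single arrays. The catalytic and non-catalytic beta genes, the alpha ring and the 19S lists separate the knockout arrays (red) from the controls (blue), as do the red blood cell markers, while the inducible subunits, assembly factors and neutrophil markers overlap. The red blood cell list includes Hbb-bt, and the neutrophil list Elane and Mmp8, which entered through the knockout arrays alone. S100a8 and Camp of the neutrophil list entered through the control arrays alone.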

How the data were processed

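Signals of 3 knockout and 3 control samples were read from the scanner files. Per the file headers, the intensity values come from Agilent Feature Extraction 10.7.1.1, which subtracted background and removed spatial trends, while the submitters' processing notes name version 9.5.1.1. The value table deposited by the authors holds quantile-normalized intensity, as found from its equal quantiles, and served as an alternative. From the scanner files, processed signals were divided by the 75th percentile of their array and put on a log2 scale without control spots and spots with outlier flags. Probes entered when the scanner marked all 3 spots of 1 or both groups well above background, and the brightest probe stood for a gene. Current symbols came from accessions in a gene table of assembly GRCm38.p6. The p-values came from limma 3.58.1 (lmFit, eBayes), run under R 4.3.3, and the data.table package (version 1.17.8) read the files. The scripts were tested on simulated data. Precision is limited by having 3 arrays in each group, and the SE of a log2 difference had a median of 0.27 over all features. Nothing in the labels says how mice were paired, and 1 array stood for 1 mouse. No spot was saturated. Pearson's r between arrays across features, which are not independent replicates, ran from 0.952 to 0.977.

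The members, gene lists and tests were chosen with earlier results of these data known. All 7 beta genes, Psmc4, the assembly factors and the inducible subunits are named, and from each other proteasome list the 2 genes with the largest difference and the 1 with the smallest. The 5 features nearest in pattern are named too.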

Additional observations from a re-analysis of the deposited data

How the results depend on the processing

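Over 21 other settings none of the 7 genes changed direction, and the adjusted p stayed above 0.05 in all of them but array weights, where 5 genes passed. The count of features past the threshold, 0 over all arrays, was 1 with normexp background correction, 1 with quantile normalization, 2 with median scaling, 1 in the deposited table, 3 with an intensity trend and robust moderation, 178 with array weights and 41 within slide row 2, where knockout 3 is assumed to vary like the controls. At a threshold of 0.10 it was 2. The mean difference of the 7 genes was 0.71 with slide row blocked and 0.71 on slide row 2 alone, both of which rest on knockout 3 alone, and over the 21 settings it lay between 0.71 and 1.36. Leaving out each array in turn gave means from 0.99 to 1.36 and 0 features past the threshold. Catalytic minus non-catalytic lay between -0.57 and -0.42 over the 21 settings and between -0.57 and -0.44 without single arrays. Single genes moved most in Psmb5, from 0.22 with slide row as a block to 1.096 without knockout 3. Settings that leave out knockout 3, or knockout 1 and 2 together, for the counts above the controls were chosen after seeing the data.

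With the replicate number as a replicate block, the mean was 1.14, catalytic minus non-catalytic was -0.496 and 0 features passed, with adjusted p of the 7 genes from 0.305 to 0.666. The correlations of same-numbered arrays' deviations were 0.072, -0.016 and 0.091. With 3 arrays in each group these cannot show whether the numbers pair the samples. Control 1 and 3 correlated best with the knockout array of their own number, but control 2 did not (0.011 with knockout 1).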
